A study of Mus musculus with 50 samples.

Results

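The miR-379/410 cluster is a run of microRNA (miRNA) hairpins in the imprinted Dlk1-Dio3 region of mouse chromosome 12. Its members were taken by name, as every arm of 36 hairpins from miR-379 to miR-410. The cluster was chosen with earlier results of these data known. The count table held 72 entries for these hairpins. A count was present for 46 of them, out of 925 miRNA entries with a count in the series, and these 46 are the members described here. The other 26 entries were at 0 in every library, and 5 hairpins (miR-544, miR-654, miR-758, miR-1193 and miR-1197) had no count on either arm.

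The study measured miRNAs in blood serum after experimental stroke by small RNA sequencing, with 25 libraries in 5 groups of 5. All mice were C57BL/6, aged 8 to 12 weeks, and RNA came from 200 µL of serum. MCAO mice had the left middle cerebral artery closed with a filament for 30 min and were bled after 150 min of reperfusion, a model of ischemic stroke. MCAO_Sham mice had the same preparation, but no filament entered the artery. ICH mice had 20 µL of their own blood infused into the striatum, a model of intracerebral hemorrhage, and ICH_Sham mice had the needle placed with nothing injected. Naïve mice were not treated, so they differ from the other groups in anesthesia and surgery as well as in stroke. The time of bleeding is given in the labels for MCAO alone. The labels do not say that libraries came from separate animals, so a p-value here reflects library-to-library spread, part of which may be technical.

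In mice the cluster is expressed from the maternally inherited chromosome, together with the long non-coding RNAs Meg3, Rian and Mirg, and its miRNAs are cut from long primary transcripts. Expression is high in brain, above all in neurons, and the hairpins can be induced together by neuronal activity. Deletion of the whole cluster in mice impairs metabolic adaptation of newborns and alters anxiety-related and social behavior. In serum, miRNAs are carried in vesicles and protein complexes and can come from any organ. More source cells, more release per cell and slower clearance cannot be told apart in such samples.

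The mature sequences of the 8 members with the most counts are shown because they held 83.7% of the cluster's counts, together with miR-495-3p, which shares a stretch with one of them. They are from RefSeq (GRCm38.p6), are written 5′ to 3′, and carry the seed, bases 2 to 8, in capitals. RefSeq mature sequences were matched for 43 of the 46 members.
miR-381-3p: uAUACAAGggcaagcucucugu
miR-541-5p: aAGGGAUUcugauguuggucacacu
miR-134-5p: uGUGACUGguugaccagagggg
miR-379-5p: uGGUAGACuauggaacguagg
miR-300-3p: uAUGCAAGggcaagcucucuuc
miR-382-5p: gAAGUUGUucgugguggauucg
miR-409-3p: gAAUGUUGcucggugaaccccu
miR-543-3p: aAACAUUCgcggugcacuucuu
miR-495-3p: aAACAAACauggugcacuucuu

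The seed is the stretch that chiefly selects the messages an miRNA represses, and none of the 8 shares its seed with another member. miR-300-3p and miR-381-3p are nevertheless close relatives. Counted from 1 at the 5′ end, they differ by G4A, U21G and C22U, with the base of miR-300-3p first, and they have the 16-base run caagggcaagcucucu in common. The G4A difference lies in the seed. miR-495-3p and miR-543-3p end in the same 12 bases, ggugcacuucuu, and differ by A6U, A7U, A9G and U10C, with the base of miR-495-3p first. How reads that match several miRNAs were counted is not given in the sources used here, so the split of counts within these pairs is uncertain.

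The hairpins lie on the plus strand at chr12:109709060-109743795 (GRCm38), a span of 34.7 kb. In the GENCODE M21 annotation, 12 of the 36 hairpins lie within the long non-coding RNA gene Mirg (chr12:109729764-109749460). Those of miR-382, miR-134, miR-668, miR-485, miR-377, miR-412, miR-369 and miR-410 overlap a Mirg exon, and those of miR-154, miR-496a, miR-541 and miR-409 lie in its introns. The other hairpins lie outside any longer annotated gene on their strand. The 16 hairpins beyond the midpoint of the span held 4229 of the cluster's 6327 counts, and the 20 hairpins before it held 2098.

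**Figure D1:**
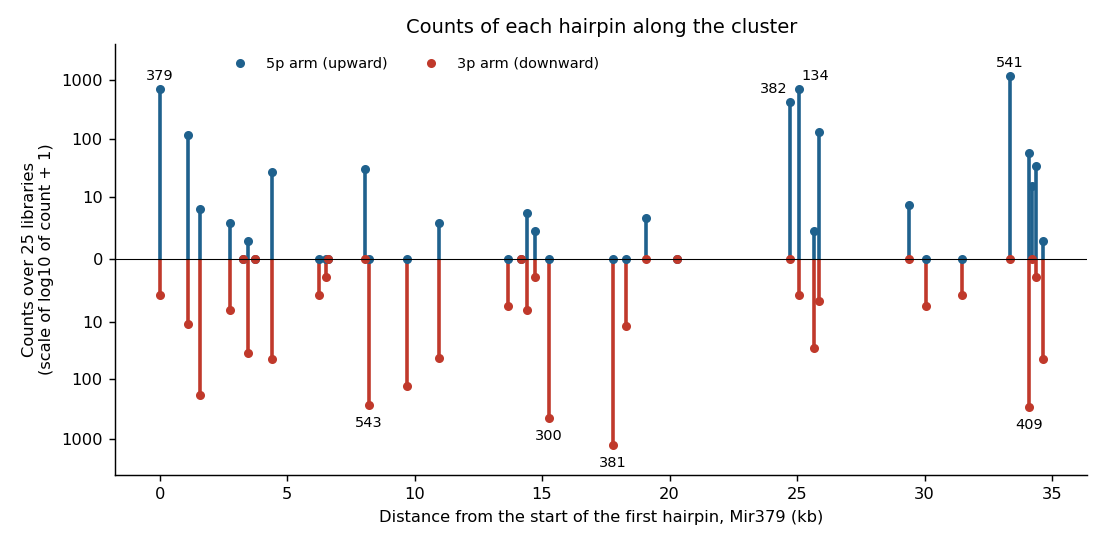
Counts over all 25 libraries for each hairpin of the cluster, against the distance in kb from the start of the first hairpin. Upward stems are 5p arms and downward stems are 3p arms, on a scale of the log10 of count + 1, and the 8 members with the most counts are labelled. The abundant arms are spread along the 34.7 kb span, some as near neighbours (such as miR-382 and miR-134). Most hairpins with 20 or more counts have one arm much taller than the other.

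Serum held little of the cluster. Its 6327 counts were 0.236% of all counts, and its most abundant member, miR-381-3p, ranked 113 in the series with 1258 counts. miR-541-5p had 1166 counts, miR-134-5p 715 and miR-379-5p 707, and these 4 members together made 60.8% of the cluster. They were followed by miR-300-3p (448 counts), miR-382-5p (6.81% of the cluster's counts), miR-409-3p (295), miR-543-3p (274) and miR-299a-3p (185). These are shares of sequenced reads and not of molecules, since adapter ligation favors some sequences.

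A further 12 members had 20 or more counts. The most abundant were miR-485-5p, with 2.15% of the cluster's counts, and miR-495-3p, with 2.04%. They were followed by miR-411-5p (117 counts), miR-409-5p (60), miR-410-3p (46), miR-329-3p (45), miR-667-3p (43), miR-323-3p (35), miR-369-5p (35), miR-666-5p (31), miR-668-3p (29) and miR-329-5p (28). The remaining 25 members had 1 to 19 counts each and 114 in all. The arms were used unequally: of 19 hairpins with 20 or more counts, 11 gave more 3p reads and 8 more 5p reads, and in 17 of them 1 arm held over 90% of the reads. The exceptions were miR-409, with 16.9% of reads from its 5p arm (exact 95% interval 13.2 to 21.2%), and miR-329, with 38.4% (27.2 to 50.5%). Reads carried no molecular identifiers, so this and the other intervals cover counting error only.

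Depth differed between the libraries, which bears on a group of miRNAs this rare. Totals ran from 38393 to 315646 counts, and the 3 smallest belonged to Naïve 3, 4 and 5. The cluster gave 79, 41 and 45 counts in these 3 libraries, in that order, and 149 to 537 in any library of the operated groups. Between 11 and 20 members were detected per Naïve library, against 19 to 29 elsewhere. Thinned to the smallest total, these become 10.98 to 16.8 expected members in Naïve libraries, 11.5 to 18.8 in MCAO, 15.2 to 18.0 in MCAO_Sham, 13.9 to 19.5 in ICH_Sham and 15.6 to 21.6 in ICH. Serum markers were present, with 14827 counts of the red cell miRNA miR-451a and 232080 of the liver miRNA miR-122-5p, the latter above 30% of the counts in ICH_Sham 1 and Naïve 2.

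The summed level of the cluster was lowest in untreated mice. It is given as counts per 1000000 library counts (CPM), with library totals corrected for composition using edgeR's TMM factors (trimmed mean of M values). The 5 Naïve libraries, in the order of their replicate numbers, were at 1613, 2199, 2013, 945 and 1014 CPM. The ICH libraries were at 2444, 2538, 3287, 3074 and 2858 CPM. The MCAO_Sham libraries, numbered 1, 2, 4, 5 and 7, were at 3775, 2225, 2270, 2812 and 2399 CPM. Every ICH and MCAO_Sham library was thus above every Naïve library, by a narrow margin in MCAO_Sham 2. The MCAO libraries were at 2139, 2166, 2380, 2843 and 2129 CPM. The ICH_Sham libraries were at 2374, 2664, 2664, 2158 and 2269 CPM. Both of these groups overlapped the Naïve group through Naïve 2, and Naïve 4 and 5 stood well below all other libraries.

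The mean sum was 1557 ± 568 CPM (SD, n = 5) in Naïve. It was 2840 ± 355 CPM in ICH, 2696 ± 646 in MCAO_Sham, 2426 ± 230 in ICH_Sham and 2331 ± 304 in MCAO. On the log2 scale of the sum, MCAO_Sham lay 0.85 above Naïve, ICH_Sham 0.72, MCAO 0.66 and ICH 0.94. Without the 3 Naïve libraries under 40000 counts, an alternative chosen after the data were seen, these differences were 0.49, 0.36, 0.30 and 0.58. MCAO lay 0.19 below its own sham (log2 difference -0.19) and ICH 0.22 above its own sham. Before TMM scaling, the pooled share of counts was 0.153% in Naïve (exact 95% interval 0.139 to 0.168%), 0.198% in MCAO, 0.238% in ICH_Sham, 0.270% in MCAO_Sham and 0.296% in ICH. On that scale MCAO 2, at 0.138%, and ICH_Sham 1, at 0.173%, lay within the Naïve range of 0.106 to 0.201%.

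**Figure D2:**
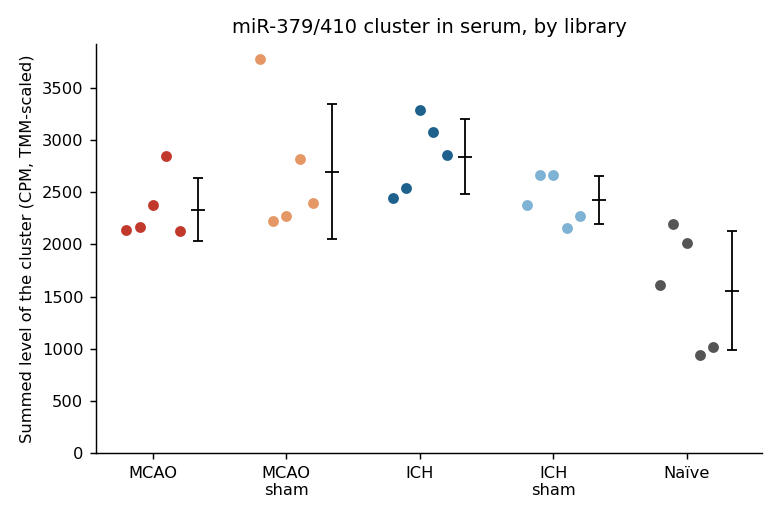
Summed CPM of the cluster in each library, scaled by TMM, for the 5 groups. Points are libraries, and the bar beside each group is the mean with its SD (n = 5). Naïve 4 and 5, at 945 and 1014 CPM, are the lowest points, and MCAO_Sham 1, at 3775 CPM, is the highest.

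Other serum miRNAs also moved between the groups. The 5 red cell entries, all with counts, made 2.93 to 8.19% of counts in Naïve libraries. The same entries made 2.60 to 6.78% in MCAO_Sham, 1.60 to 4.34% in ICH_Sham, 1.24 to 3.49% in MCAO and 1.84 to 2.85% in ICH. Most of their counts, 65640, were in the joint entry of miR-486-5p and miR-3107-5p. Of 6 lymphocyte entries, 5 had counts (miR-155-3p was at 0), with 0.573 to 2.18% in Naïve, 0.469 to 1.01% in MCAO_Sham, 0.489 to 0.777% in ICH_Sham, 0.197 to 0.708% in MCAO and 0.294 to 0.515% in ICH. The neuron and brain list, with 13 of 17 entries counted, had group means of 1.25 to 1.52%. Most of that list was miR-128-3p (34064 counts), which other tissues also make, while miR-124-3p had 103 counts and both arms of miR-153 were at 0. The muscle list, with 7 of 11 entries counted, had a mean of 2.58% in Naïve and 2.78 to 5.34% in the other groups, and the epithelial list, with 12 of 14, had 1.39% and 1.79 to 2.72%. The liver list (4 of 4) had a mean of 13.1% in Naïve (libraries 3.77 to 33.9%) and 13.4% in ICH_Sham (4.86 to 33.8%). Means in the others were 6.12 to 7.09%. Naïve 2 and ICH_Sham 1, with over 30% of counts in miR-122-5p, raised the first 2 means. Group means of the oligodendrocyte list (5 of 5) were 0.0268% in Naïve and 0.0205 to 0.0438% elsewhere. Those of the platelet and myeloid list (4 of 4) were 0.1196 to 0.164%, with 0.124% in Naïve, and those of the mesenchymal list (9 of 9) were 4.67 to 6.19%, with 5.41% in Naïve. The part of these shares, and of depth, in the differences from Naïve was not tested, apart from the values without the 3 small Naïve libraries.

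Differences of single miRNAs were tested with edgeR's quasi-likelihood test on all 25 libraries, with Benjamini-Hochberg adjustment over all miRNAs that passed a filter on low counts. These were 9 of the 46 members, 4 other miRNAs of the imprinted region and 186 from elsewhere. The 9 members held 86.6% of the cluster's counts. A member rare in untreated mice could pass through its counts in operated mice, so the 9 are not a fair sample of the cluster. The 4 comparisons with untreated mice share the same Naïve libraries and are therefore not independent.

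Among the 9 members, ICH against Naïve gave the most calls, though over all tested miRNAs MCAO against Naïve gave more (61, against 29 in ICH). In ICH, 4 of the 9 members rose at an adjusted p under 0.05, where 8.54% of all tested miRNAs rose. They were miR-379-5p, miR-300-3p, miR-381-3p and miR-382-5p. miR-379-5p comes from the first hairpin of the cluster. Its Naïve libraries held 215.98, 132, 127.4, 69.2 and 45.1 CPM, from 17, 8, 5, 3 and 2 reads. Its ICH libraries held 278, 372, 316, 406 and 337.6 CPM. No ICH library was as low as any Naïve library, and the rise was 1.44 ± 0.31 on the log2 scale (SE, edgeR adjusted p = 0.00166). The call held whichever single library was left out (adjusted p 0.00057 to 0.0104 over 25 fits), but not without the 3 small Naïve libraries (0.95, adjusted p = 0.198).

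miR-300-3p, the relative of miR-381-3p, held 127.05, 132, 51.0, 69.2 and 22.5 CPM in the Naïve libraries. It held 208.7, 242, 158, 332 and 188 CPM in the ICH libraries. Again the groups did not overlap, and the rise was 1.38 ± 0.33 (edgeR adjusted p = 0.00433). Non-overlap in this direction was seen for 2 of 9 members and for 4.02% of all tested miRNAs. The call held in all 25 fits that left out 1 library, and was lost without the 3 small Naïve libraries (0.83, adjusted p = 0.326).

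miR-381-3p held 517, 521, 424, 830 and 534 CPM in ICH and 368, 413, 484, 138.3 and 113 CPM in Naïve. The groups overlapped through Naïve 3, and the rise was 0.88 ± 0.29 (edgeR adjusted p = 0.0361). miR-382-5p held 218.6, 149, 257, 154.6 and 196 CPM in ICH and 114, 82.7, 178, 0 and 45.1 CPM in Naïve. These groups overlapped as well, Naïve 4 had no read of this miRNA, and the rise was 1.17 ± 0.39 (edgeR adjusted p = 0.0468). Leaving out single libraries ended the miR-381-3p call in 7 of 25 fits and the miR-382-5p call in 17. The number of members called fell from 4 to 2 without ICH 1, ICH 4, ICH_Sham 1, ICH_Sham 5, Naïve 1, Naïve 4 or Naïve 5, and to 0 without the 3 small Naïve libraries. Calls over all tested miRNAs are not given for these fits, so the fall need not be particular to the cluster. The other 5 members did not pass, with log2 differences from 0.49 to 0.76.

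**Figure D3:**
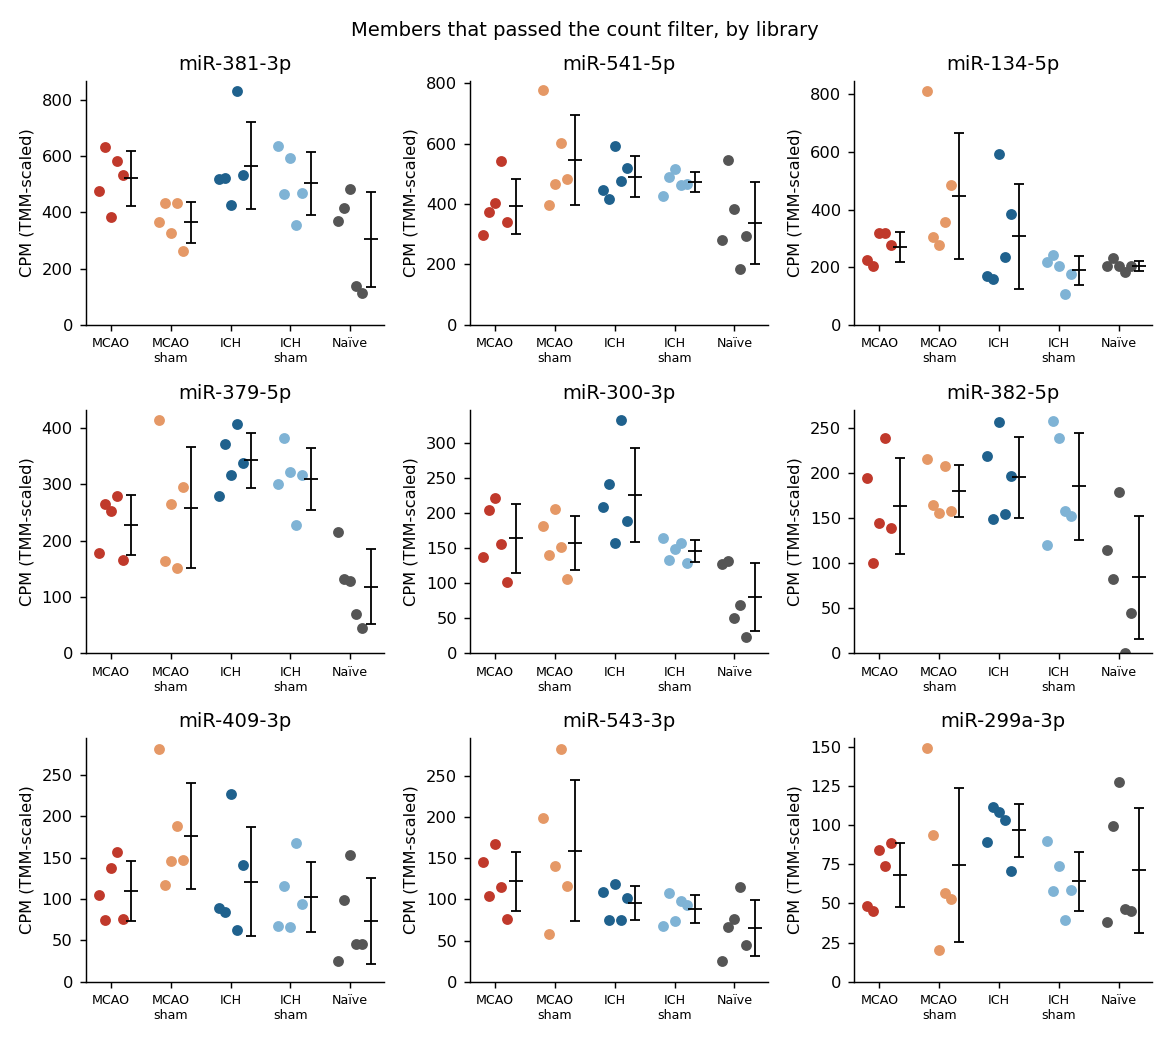
TMM-scaled CPM of the 9 members that passed the count filter, by library and group. Points are libraries and bars are the mean with its SD (n = 5). For miR-379-5p and miR-300-3p every ICH point is above every Naïve point, while miR-134-5p spreads from 276 to 811 CPM in MCAO_Sham against 184 to 231 CPM in Naïve.

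MCAO against Naïve gave 3 rises among the 9 members, in a comparison where 17.6% of all tested miRNAs rose. miR-379-5p, at 178, 264, 252, 279 and 165 CPM in the MCAO libraries, rose by 0.86 ± 0.32 on the log2 scale (edgeR adjusted p = 0.0423). miR-300-3p, at 137.2, 204.1, 221.2, 156 and 101 CPM in MCAO, rose by 0.93 ± 0.34 (edgeR adjusted p = 0.0391). miR-381-3p, at 476, 632, 381, 583 and 532 CPM in MCAO, rose by 0.76 ± 0.29 (edgeR adjusted p = 0.0424). All 3 overlapped the Naïve libraries, through Naïve 1 for miR-379-5p, Naïve 1 and 2 for miR-300-3p and Naïve 2 and 3 for miR-381-3p. The count was 0 or 1 without any of MCAO 2, 3 and 4, MCAO_Sham 2, 4 and 7, ICH 1 and 3, ICH_Sham 1, 4 and 5, and Naïve 4 and 5, and 0 without the 3 small Naïve libraries together. Here too, calls over all tested miRNAs are not given for these fits. miR-543-3p (0.99 ± 0.41, adjusted p = 0.0637) and miR-382-5p (0.91 ± 0.40, adjusted p = 0.0801) did not pass. DESeq2 did not call miR-300-3p (0.91, adjusted p = 0.0656), and a fit without the count filter called neither miR-379-5p (adjusted p = 0.0855) nor miR-300-3p (adjusted p = 0.105).

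The shams were also set against untreated mice. In ICH_Sham, 1 of 9 members rose, where 3.52% of all tested miRNAs did. This was again miR-379-5p, at 300, 381.8, 321, 227 and 316 CPM, with a rise of 1.29 ± 0.32 (edgeR adjusted p = 0.00838). Its lowest library, ICH_Sham 4, was above the highest Naïve library, and 3.02% of the tested miRNAs were separated in this way. The call held in each of 25 fits without 1 library and was lost without the 3 small Naïve libraries (0.82, adjusted p = 0.475). miR-382-5p (1.11 ± 0.40, adjusted p = 0.103) and miR-381-3p (0.71 ± 0.29, adjusted p = 0.163) had the next smallest p-values. Without Naïve 3, miR-382-5p passed too (1.42, adjusted p = 0.0398).

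In MCAO_Sham against Naïve no member was called by edgeR, DESeq2 or limma voom, in a comparison where edgeR called 0.503% of all tested miRNAs. At an unadjusted p under 0.05, edgeR listed 7 of the 9 members, against 9.05% of all tested miRNAs. The 3 with the smallest p were miR-379-5p (1.03 ± 0.33), miR-543-3p (1.28 ± 0.41) and miR-134-5p (1.08 ± 0.35), each with an adjusted p of 0.192. miR-543-3p acts with miR-369-3p and miR-496 on the adhesion molecule N-cadherin in the developing mouse cortex. Across the cluster's 9 tested members the median log2 difference was 1.03, beside -0.02 for all tested miRNAs. As the filter could favor members high in operated mice, neither this median nor the 7 of 9 describes the whole cluster. In the fit without the filter, the 12 members left out with 20 or more counts ran from -0.76 (miR-410-3p) to 2.24 (miR-495-3p).

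miR-134-5p limits growth of dendritic spines by repressing the kinase Limk1, as shown in rat neurons. It held 811, 304, 276, 359 and 484 CPM in MCAO_Sham 1, 2, 4, 5 and 7 and 203.3, 231, 203.8, 184 and 202.8 CPM in Naïve. All MCAO_Sham libraries were above all Naïve libraries, the sole non-overlap upward in this comparison (0.503% of the tested miRNAs). It held 225.99, 204.1, 320, 320 and 279 CPM in MCAO, and 217.2, 241, 205.5, 108 and 175 CPM in ICH_Sham. The ICH libraries were at 169, 158, 592, 235 and 385 CPM, with ICH 3 the highest. The SD was smallest in Naïve, at 16.8 CPM, and largest in MCAO_Sham, at 218.9 CPM.

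The 4 operated groups together, weighted equally, were higher than Naïve for 2 of 9 members, where 5.03% of all tested miRNAs were. miR-379-5p rose by 1.15 ± 0.28 (edgeR adjusted p = 0.00693) and miR-300-3p by 0.98 ± 0.30 (edgeR adjusted p = 0.0350). miR-382-5p missed the threshold (1.06 ± 0.35, adjusted p = 0.0514), and DESeq2, limma voom and the fit without the count filter called it, while the last of these did not call miR-300-3p (adjusted p = 0.0576). The count fell to 1 without MCAO_Sham 4, ICH_Sham 1, ICH_Sham 4 or Naïve 4, and to 0 without Naïve 5 or without the 3 small Naïve libraries. For these fits as well, calls over all tested miRNAs are not given. The median over the 9 members was 0.81, beside 0.00 for all tested miRNAs. The 12 members under the filter with 20 or more counts ran from -0.42 (miR-369-5p) to 2.24 (miR-495-3p) in the fit without it. miR-299a-3p did not pass in any comparison, with 71.2 ± 39.8 CPM (SD, n = 5) in Naïve and group means of 64.0 to 96.6 CPM elsewhere.

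**Figure D4:**
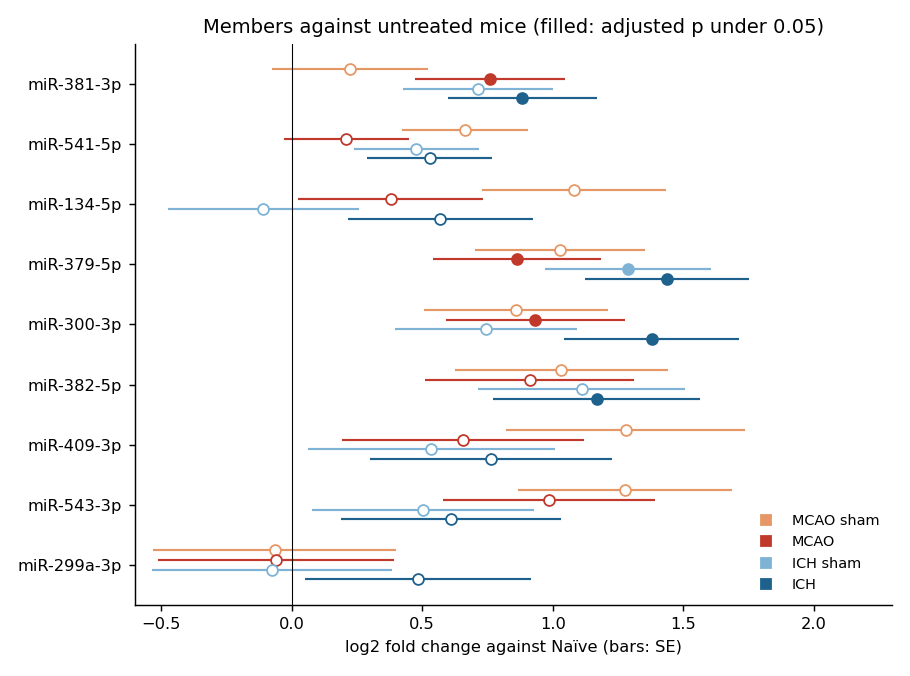
Log2 fold change of each tested member against Naïve in the 4 operated groups, from edgeR, with bars of 1 SE. Filled points have an adjusted p under 0.05. The 8 filled points belong to miR-379-5p (3 groups), miR-300-3p and miR-381-3p (2 groups each) and miR-382-5p (ICH); miR-299a-3p lies near 0 except in ICH, at 0.49.

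Neither stroke model moved a tested member past the threshold relative to its own sham. In MCAO against MCAO_Sham, 0 of 9 members were called by edgeR, DESeq2 or limma voom, while edgeR called 7.54% of all tested miRNAs, and 1 member had an unadjusted p under 0.05, against 33.2% of them. That member was miR-134-5p, at 270 ± 53.5 CPM in MCAO and 447 ± 218.9 CPM in MCAO_Sham (SD, n = 5), with a log2 difference of -0.70 ± 0.31 (edgeR adjusted p = 0.113). Without MCAO_Sham 1 it was -0.39. miR-541-5p was at 392.1 ± 92.6 CPM in MCAO and 546 ± 149 CPM in MCAO_Sham (-0.45 ± 0.22, adjusted p = 0.149). miR-381-3p had the opposite sign, at 521 ± 97.4 CPM in MCAO and 364 ± 73.1 CPM in MCAO_Sham (0.54 ± 0.27, adjusted p = 0.156). Estimates were below 0 for 6 of the 9 members, against 48.7% of all tested miRNAs.

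In ICH against ICH_Sham, 0 of 9 members were called by any of the 3 tools, and edgeR called 0% of the tested miRNAs. All 9 estimates were above 0, from 0.05 to 0.68, against 53.3% of the tested miRNAs. Not all of these signs held in single runs. With run 1 alone miR-543-3p was at -0.80 and miR-409-3p at -0.26, and with run 2 alone miR-381-3p was at -0.26. An unadjusted p under 0.05 was reached by 2 members and by 10.1% of the tested miRNAs. miR-134-5p was at 308 ± 183 CPM in ICH and 189 ± 51.0 CPM in ICH_Sham (SD, n = 5), a log2 difference of 0.68 ± 0.32 (edgeR adjusted p = 0.462). Without ICH 3 it was 0.32 (adjusted p = 0.697). miR-300-3p was at 225.7 ± 66.8 CPM in ICH and 146 ± 15.6 CPM in ICH_Sham (0.63 ± 0.28, adjusted p = 0.462). The third smallest p was that of miR-299a-3p (0.56 ± 0.37, adjusted p = 0.581). For miR-379-5p the estimate was 0.15 ± 0.26.

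An interaction contrast asked whether the change from sham to stroke differed between the models. It called 0 of 9 members with edgeR, DESeq2 or limma voom, and edgeR called 1.01% of all tested miRNAs. The smallest p was that of miR-134-5p (-1.38 ± 0.45, edgeR adjusted p = 0.137), the single member with an unadjusted p under 0.05, which 16.6% of all tested miRNAs had. It was followed by miR-409-3p (-0.85 ± 0.53, adjusted p = 0.422) and miR-541-5p (-0.50 ± 0.31, adjusted p = 0.422).

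Tested members varied unequally between libraries of a group. miR-541-5p, from a Mirg intron, was the steadiest, with a within-group SD of 0.35 on the scale of log2 (CPM + 1). Its group means ran from 336.9 ± 136.07 CPM in Naïve to 546 ± 149 CPM in MCAO_Sham. miR-382-5p was the least steady (1.39), through the library with no read, whose place on this scale is set by the added 1. The median over the 9 was 0.56, beside 0.47 over all tested miRNAs, without adjustment for abundance. miR-409-3p was at 73.7 ± 52.0 CPM in Naïve and 176 ± 64.3 CPM in MCAO_Sham (SD, n = 5), and at 102 to 121 CPM in the other groups. miR-543-3p was at 65.7 ± 33.99 CPM in Naïve and 159 ± 85.6 CPM in MCAO_Sham, with overlap through MCAO_Sham 2, at 58.5 CPM. MCAO_Sham 7, at 115.8 CPM, was barely above the highest Naïve library, at 115.3 CPM.

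Members under the filter were not in the fit that gave the calls above. The 12 with 20 or more counts summed to 200 ± 108 CPM (SD, n = 5) in Naïve, 263 ± 71.3 in MCAO, 333 ± 46.1 in ICH, 295 ± 46.8 in MCAO_Sham and 314 ± 41.5 in ICH_Sham. miR-495-3p had 2, 0, 0, 0 and 1 reads in the Naïve libraries and 38 reads in MCAO, 35 in ICH, 27 in MCAO_Sham and 26 in ICH_Sham. Relative to library totals, its level was 4.58 times that of Naïve in MCAO (exact 95% interval 1.45 to 23.2) and 5.48 times in ICH (1.73 to 27.9). Over the 12 members, such ratios ran from 0.54 (miR-410-3p) to 4.58 in MCAO. In ICH they ran from 0.75 (miR-369-5p) to 6.58 (miR-323-3p). The ratio of miR-323-3p rests on 14 reads in ICH and 1 read in Naïve. Its exact 95% interval, 1.001 to 278, leaves the size of the difference open. In a fit of all 925 miRNAs without the filter miR-495-3p passed for MCAO against Naïve (2.39 ± 0.74, edgeR adjusted p = 0.0305) and for the operated groups together (2.24 ± 0.68, adjusted p = 0.0377). At similar estimates it did not pass for ICH (2.35 ± 0.74, adjusted p = 0.0553), MCAO_Sham (2.24 ± 0.77, adjusted p = 0.430) or ICH_Sham (1.99 ± 0.77, adjusted p = 0.379). miR-485-5p, which represses the synaptic vesicle protein SV2A in rat neurons, was at 44.1 ± 21.6 CPM (SD, n = 5) in Naïve and 28.4 ± 17.0 CPM in MCAO, and at 57.2 to 71.4 CPM on average in the other groups. miR-411-5p was at 42.8 ± 25.1 CPM in Naïve, within the 36.5 to 56.2 CPM of the other groups. The 25 rarest members had 5 reads in Naïve, the shallowest group, 20 in MCAO, 17 in MCAO_Sham, 29 in ICH_Sham and 43 in ICH.

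The same imprinted region holds other miRNAs outside the cluster, among them those antisense to Rtl1, the transposon-derived placental gene. Of 40 entries on that list, 26 had counts, 6491 in all, and 4 passed the filter: miR-127-3p, miR-434-3p, miR-434-5p and miR-433-3p. miR-434-3p was at 343, 331, 510, 622 and 315 CPM in Naïve. It held 676, 799, 1076, 1031 and 1193 CPM in ICH and 921, 1021, 1077, 1094 and 667 CPM in ICH_Sham. Neither group overlapped Naïve, and it rose by 1.19 ± 0.27 in ICH (edgeR adjusted p = 0.00275) and by 1.19 ± 0.27 in ICH_Sham (edgeR adjusted p = 0.00757). In MCAO it did not pass (0.38 ± 0.28, adjusted p = 0.312), nor did miR-127-3p, whose estimate was below 0 (-0.41 ± 0.24, adjusted p = 0.203). None of the 4 passed against either sham, and all 4 estimates for MCAO against MCAO_Sham were below 0, from -0.62 to -0.45.

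The cluster and the rest of the region were not at a fixed ratio in serum. The log2 ratio of the sums ran from -1.10 to 0.91 over the 25 libraries, with an SD of 0.40, close to the 0.44 of the cluster sum and the 0.43 of the other sum. Its group mean was 0.34 ± 0.44 (SD, n = 5) in MCAO and -0.12 ± 0.14 in ICH. In untreated mice it was -0.44 ± 0.49, in MCAO_Sham 0.01 ± 0.21 and in ICH_Sham -0.24 ± 0.23. The groups overlapped in this ratio, and it was not tested.

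**Figure D5:**
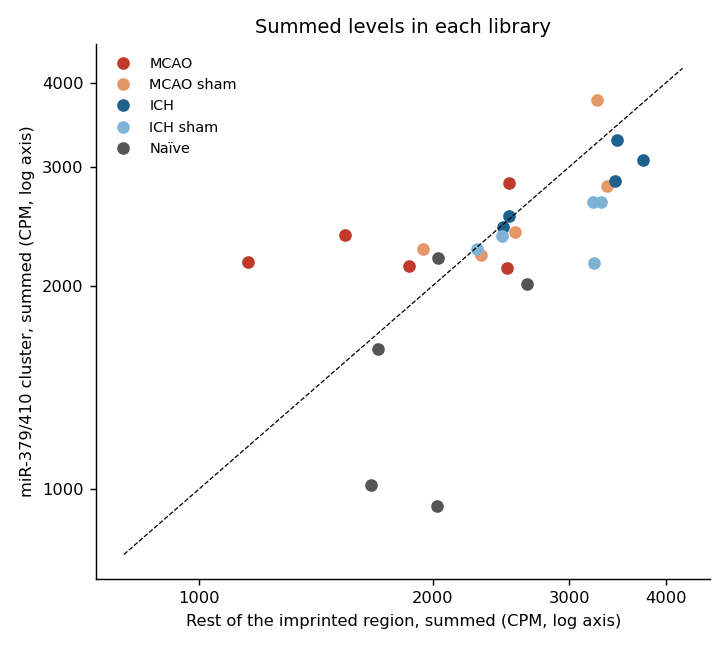
Summed CPM of the miR-379/410 cluster against that of the other miRNAs of the imprinted region, both on log axes, 1 point per library. The dashed line marks equal sums. Naïve 4 and 5 are the lowest points for the cluster but not for the rest of the region, and MCAO libraries reach furthest above the line, up to a log2 ratio of 0.91.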

How the data were processed

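Per the labels' protocols, RNA was extracted from 200 µL of serum, and small RNA libraries were made from a fixed volume of input and sequenced on an Illumina HiSeq. The submitters' processing notes name Bowtie 0.12.9. Not given in the sources used here are the genome build, the miRNA release, trimming and how multiply matching reads were treated. Raw counts for 1892 miRNA entries were deposited by the authors in 1 table, without normalization. It has 50 columns, 2 for each of 25 libraries, which share an index tag but carry different run numbers in the labels. The labels call the sequencing paired-end, so the 2 columns could hold read mates. Over miRNAs with at least 20 counts, however, the paired columns gave a chi-square of 0.792 to 1.27 times its degrees of freedom, as separate draws from 1 library would; shared fragments would bring it nearer to 0. They were treated as repeat runs and summed to 1 sample, giving 38393 to 315646 counts per library. Were they mates, fragments would be counted more than once and the intervals would be too narrow.

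The members and lists were chosen with earlier results of these data known. edgeR's filterByExpr (minimum count 10) kept 9 members, 4 other miRNAs of the region and 186 further miRNAs, with 99.5% of counts. Libraries were scaled by TMM, and group means were fitted jointly over the 25 libraries (20 residual degrees of freedom, biological coefficient of variation 0.297). Contrasts were tested by the robust quasi-likelihood test with Benjamini-Hochberg adjustment over all kept miRNAs, at a threshold of 0.05, in 8 comparisons. The SE is the log2 fold change divided by the square root of F. The cluster sum was given no test. Alternatives were DESeq2, limma voom, other scalings, no filter, single runs, blocks and left-out libraries; the latter fits kept the same miRNAs. All tested members are named with values, members under the filter from 20 counts on, and per comparison every called member or the 3 with the smallest p. Positions are from GENCODE M21 and sequences from RefSeq. Software was Python 3.11.15 with matplotlib 3.10.9, and edgeR 4.0.16, DESeq2 1.42.0 and limma 3.58.1 under R 4.3.3.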

Additional observations from a re-analysis of the deposited data

Results flagged for a closer look

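In the 50 sets of 5 libraries looked at (9 tested members and the cluster sum in 5 groups), 1 held a library far from the others. miR-381-3p was at 830 CPM in ICH 4, where the next highest ICH library was at 534 CPM, a gap of 0.73 of the whole range (critical value 0.71). Chance alone marks about 1 in 20 such sets. Without ICH 4 the difference of miR-381-3p between ICH and Naïve was 0.70 on the log2 scale (edgeR adjusted p = 0.128), and the call was also lost without Naïve 4 (0.67, adjusted p = 0.130) or Naïve 5 (0.66, adjusted p = 0.148), among 7 of 25 such fits.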

How the results depend on the processing

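Calls of members against Naïve came from few reads in Naïve, and none held without the 3 Naïve libraries under 40000 counts. Depth and group size changed together in that fit, and their parts were not tested. Without those 3, an alternative chosen after seeing the data that also leaves Naïve with 2 libraries, 0 members were called in any comparison, and the log2 difference of the cluster sum fell to 0.49 for MCAO_Sham, 0.36 for ICH_Sham, 0.30 for MCAO, 0.58 for ICH and 0.43 for the 4 operated groups. With run 1 alone, 0 members were called against Naïve in ICH_Sham, MCAO, ICH and the operated groups together; with run 2 alone, 1 was called in the last. With a block for the range of index tags in the labels, lower or higher, the calls were 0 in ICH_Sham, 0 in MCAO, 1 in ICH and 0 in the operated groups, but of the Naïve libraries only Naïve 1 was in the lower range, where all ICH and ICH_Sham libraries lay, so that tags and these groups can hardly be told apart. In MCAO against Naïve, 0 members were called with library totals alone, where calls over all tested miRNAs fell from 61 to 29. With only the groups compared in the fit, 0 members were called in MCAO and 2 in ICH against Naïve. Calls over all tested miRNAs are not given for the other settings. Fewer members called there need not be particular to the cluster. Without ICH_Sham 1 and Naïve 2, the libraries rich in miR-122-5p, 0 members were called in ICH_Sham (also chosen after seeing the data). With the replicate block, 1 member was called in MCAO against Naïve in place of 3, and 3 in the operated groups; the numbers do not pair the samples, as the correlation of same-numbered libraries ran from -0.35 to 0.53 and was over 0.1 in 16 of 46 pairs. Leaving out each library in turn gave 1 to 2 calls in ICH_Sham, 0 to 4 in MCAO, 2 to 4 in ICH and 0 to 3 in the operated groups against Naïve, and 0 in the other comparisons; the cluster sum then differed by -0.26 to -0.06 for MCAO and 0.17 to 0.28 for ICH over their shams, by 0.69 to 0.99 (MCAO_Sham), 0.56 to 0.86 (ICH_Sham), 0.50 to 0.80 (MCAO), 0.78 to 1.09 (ICH) and 0.63 to 0.94 (operated groups) from Naïve, and by -0.49 to -0.28 in the interaction. No estimate of a called member reversed. Scaling by library totals moved the median of all miRNAs to -0.20 in MCAO against MCAO_Sham and -0.22 in the interaction. In Naïve, 3 reads pooled over the group are 10.8 CPM, which limits what can be seen of rarer members.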
